A study of Mus musculus with 6 samples.

Results

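The Achilles tendon, which takes the pull of the gastrocnemius and soleus muscles to the heel bone, was compared with the rectus femoris, a muscle of the front of the thigh, by RNA-seq in the mouse. Of the 6 libraries in the series, 4 were compared: the 2 whose treatment label reads Achilles tendon and the 2 whose treatment label reads Rectus femoris. The other 2, from the infrapatellar fat pad, were not compared. They entered the choice of genes tested, the scaling between libraries and the shared estimate of the spread. The source and tissue labels call all 6 libraries infrapatellar fat pad, so the identity of each library rests on the treatment label and on the marker genes described here. The series title concerns letrozole, an inhibitor of the oestrogen-making enzyme aromatase, in female mice, but a form of the drug's name stands only in the titles of the fat pad libraries. For the tendon and muscle libraries no label gives a strain, genotype, age or drug, or says whether the 2 libraries of a tissue are separate animals. The p-values therefore describe the spread between libraries, which could be technical. The tendon titles end in the word combined, with no word on what was joined, and those of muscle lack it. Each tissue's titles carry a code that the other tissues lack, while the batch label is common to all 6, so whatever that code marks cannot be told apart from the tissue.

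Tendon is a rope of type I collagen fibrils laid down by tendon cells, whose identity depends on the transcription factors scleraxis (Scx) and Mohawk (Mkx). Small leucine-rich proteoglycans set the width of the fibrils, cross-linking enzymes join them, and near the bone the tissue becomes fibrocartilage. A muscle fibre is made of sarcomeres, and slow and fast fibres build these from different isoforms of myosin, troponin and the calcium pump, with Myh7 as the myosin heavy chain of slow fibres and Myh2, Myh1 and Myh4 as those of progressively faster ones.

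Depth was 56216295 and 58544836 counts in the muscle libraries and 59042675 and 62063826 in the tendon libraries. The 10 genes with the most counts took 30.1% and 27.4% of all counts in muscle and 9.73% and 12.2% in tendon. Levels are therefore given as CPM, counts relative to library size, after scaling by the trimmed mean of M-values (TMM), which allows for such a difference in make-up. Scaling by total counts instead raises every tendon-over-muscle value, and moves the median over all tested genes from a log2 fold change of 0.10 to 0.83. The libraries of a pair differed by more than sampling noise, by a chi-square of 78.7 for each degree of freedom in muscle and 528 in tendon. The authors' TPM columns (counts corrected for transcript length and depth) did not follow the counts of the same-named library. Across genes, the log2 ratio of library 2 to library 1 in TPM had a correlation of -0.31 with that in counts in muscle (9369 genes) and -0.27 in tendon (10759 genes), against 1 in the fat pad. Tendon-over-muscle differences in TPM and counts had a correlation of 0.80 across 14914 genes. Results are given from the counts, with the TPM value where it differs, and no value here shows which column carries the right library name.

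Of 15856 genes tested with edgeR's quasi-likelihood test, 2110 were called higher in tendon (13.3%) and 2017 lower (12.7%) at a Benjamini-Hochberg adjusted p of 0.05, and 1691 and 1184 of these differed by at least 2-fold. Differences of at least 16-fold were found for 141 genes higher in tendon and 26 lower. The libraries of the tissues did not overlap for 70.1% of the tested genes. The 2 directions did not hold equally across scalings. Total-count scaling called 37.6% of all genes higher and 2.51% lower, and the TPM columns 29.5% and 3.63%. Total-count scaling raises the tendon-over-muscle values, which favours higher calls and works against lower ones. All 2110 genes called higher were also called higher under it, which is therefore no independent check on them. Of the 2046 of these with a TPM value, 1780 were called higher in TPM. Of the 2017 called lower, 398 were called lower with total counts, and of the 2003 with a TPM value 394 were called lower in TPM and 5 higher. The calls also leaned on the muscle libraries, the pair whose libraries differed least: leaving out muscle library 1 left 37 genes called higher and 6 lower, and leaving out muscle library 2 left 14 and 5. Leaving out tendon library 1 left 1092 and 724, and leaving out tendon library 2 gave 2286 and 2094. Of the 208 list genes called higher and 135 called lower that the following paragraphs draw on, 16 and 0 were still called without muscle library 1 and 6 and 0 without muscle library 2, and this applies to each count given for a list.

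**Figure D1:**
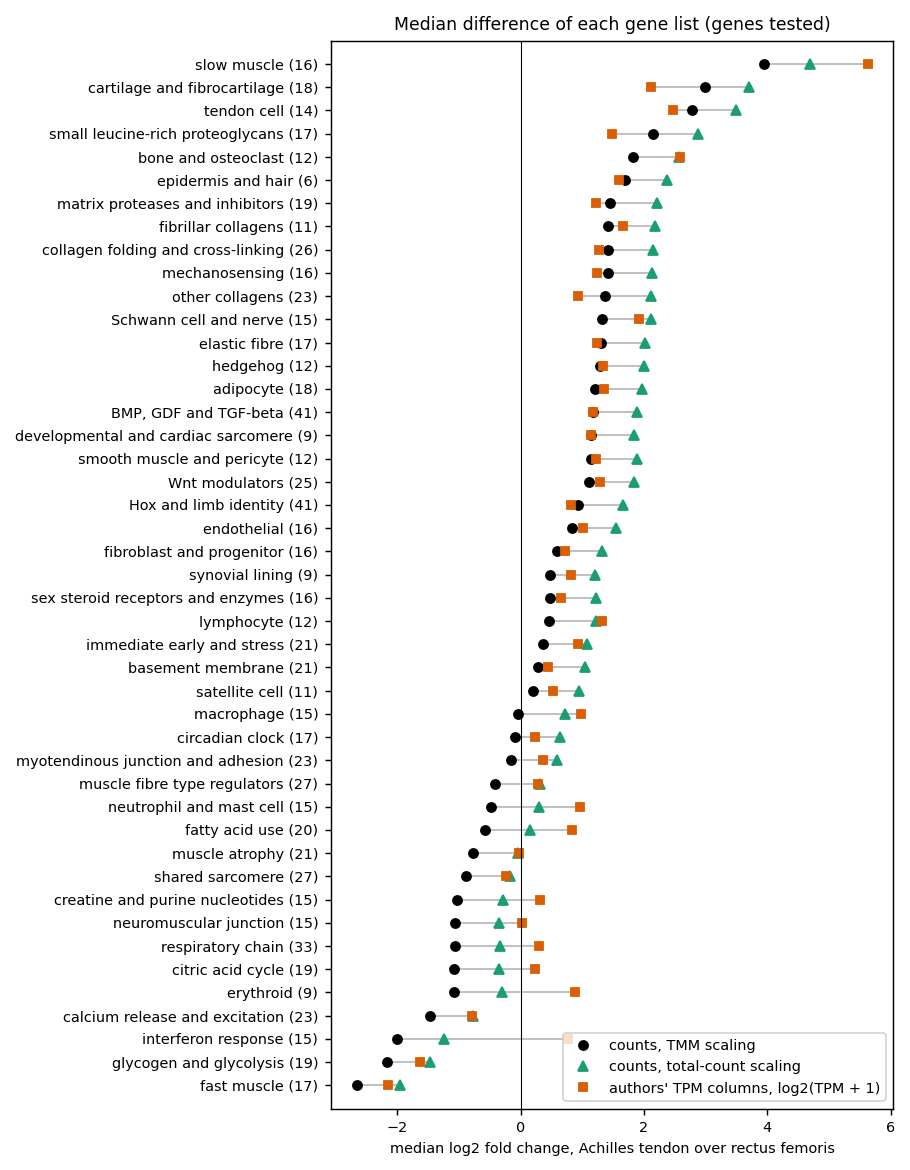
Median log2 fold change of Achilles tendon over rectus femoris for each of 45 gene lists (vertical axis, with the number of genes tested), from counts with TMM scaling (black circles), counts with total-count scaling (green triangles) and the authors' TPM columns (orange squares), with a grey line joining the 3. Slow muscle stands at the top and fast muscle at the bottom under TMM. The lists of the respiratory chain, citric acid cycle and fatty acid use are among those that cross 0 in TPM.

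Tendon cell genes were higher in the tendon libraries, with 11 of 14 tested members called and none called lower, and a median log2 fold change of 2.78 against 0.10 over all genes. In bulk RNA, fewer cells of a type and less RNA per cell cannot be told apart. Scx, the transcription factor that marks tendon progenitors, stood at 8.67 and 6.28 CPM in muscle and 32.9 and 68.7 in tendon, which is 2.77 ± 0.51 with its standard error, and an adjusted p of 0.014 in edgeR. Mkx, which keeps tendon cells making type I collagen, stood at 3.97 and 2.75 CPM in muscle and 28.3 and 47.8 in tendon (3.50 ± 0.36, adjusted p = 0.0047 by edgeR). Both factors were higher in each tendon library than in either muscle library, and higher in tendon library 2 than in library 1. Tnmd, the membrane protein tenomodulin of mature tendon cells, stood at 59.9 and 23.5 CPM in muscle and 229.5 and 347 in tendon. The highest member on the log2 fold scale was Chad, chondroadherin, a leucine-rich protein of cartilage and tendon that binds collagen, at 34.9 and 30.2 CPM in muscle and 1794 and 1621 in tendon (5.71 ± 0.32, adjusted p = 0.00282 by edgeR). Comp and Thbs4, thrombospondins that bridge collagen fibrils, stood at 1101 and 974 and at 3118 and 3951 CPM in tendon against 39.3 and 27.8 and 451 and 272 in muscle. Egr2, Tspan15 and Kera, the remaining members, were not called, with log2 fold changes of 0.95, 0.47 and 1.74.

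Fibrillar collagens, the chains that build the fibrils, were called higher for 7 of 11 tested members and lower for none, with a median log2 fold change of 1.42. Col1a1 and Col1a2, the chains of type I collagen, reached 9643 and 6219.7 and 13142 and 8623 CPM in tendon from 998 and 721 and 1332 and 922 in muscle. Their log2 fold changes were 3.21 ± 0.46 and 3.27 ± 0.48 (adjusted p = 0.0085 and 0.00908 by edgeR). Col3a1, the chain of the thinner fibrils of loose connective tissue, stood at 1560.0 and 1199 CPM in muscle and 3274 and 1179 in tendon, and tendon library 2 lay below both muscle libraries. Within a library and per coding length, Col3a1 made up 60.8% and 62.3% of Col3a1 and Col1a1 together in muscle and 25.2% and 15.8% in tendon. The minor chains that nucleate or thin the type I and type II fibrils moved unequally. Col11a1 stood at 21.3 and 12.9 CPM in muscle and 174 and 208 in tendon (3.48 ± 0.28), and Col5a2 at 148 and 128 and 469.7 and 270.2 (1.42 ± 0.31), both called, whereas Col5a1 and Col5a3 were not called (0.58 ± 0.35 and 0.11 ± 0.27).

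Of the other collagens, 8 of 23 were called higher and 2 lower. Col12a1, which decorates the surface of type I fibrils, stood at 51.1 and 50.8 CPM in muscle and 297 and 393 in tendon (2.76 ± 0.24). Col8a2, a short chain of sheet-like networks, stood at 15.7 and 9.12 and 85.5 and 139.7 (3.18 ± 0.35). Col22a1, found where muscle meets tendon, stood at 68.4 and 44.0 CPM in muscle and 125 and 569 in tendon (2.63 ± 0.67), and library 2 accounted for most of its tendon level. The 2 called lower were Col7a1, the anchoring fibril collagen, at 44.1 and 37.5 in muscle and 5.67 and 8.96 in tendon (-2.48 ± 0.28), and Col19a1, at 0.809 and 1.52 and 0.0773 and 0.151 (-3.33 ± 0.98). Both were also lower in TPM, with log2 differences of -1.80 and -0.67. Basement membrane genes stood close to the background, with 3 of 21 called higher, none lower and a median of 0.29. Their 3 called members were Col4a2 (0.72 ± 0.21), Col18a1 (1.12 ± 0.20) and Lama3 (1.71 ± 0.28), and with total-count scaling 13 were called higher. Without tendon library 2, 5 were called, and without library 1 the median was -0.13.

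Enzymes and chaperones that fold, trim and cross-link collagen were called higher for 17 of 26 tested members and lower for none, with a median of 1.41. Lox, the lysyl oxidase that starts cross-linking outside the cell, stood at 61.7 and 41.2 CPM in muscle and 472 and 386 in tendon (3.06 ± 0.28, adjusted p = 0.00391 by edgeR). Its relatives Loxl1, Loxl2, Loxl3 and Loxl4 were also called higher, with log2 fold changes from 0.74 (Loxl1) to 2.92 (Loxl4). P3h2, a prolyl 3-hydroxylase, stood at 5.54 and 5.46 CPM in muscle and 67.2 and 78.1 in tendon (3.72 ± 0.21), although 28.4% of its exonic bases are shared with another gene. Fkbp10, a folding chaperone of the endoplasmic reticulum, stood at 15.1 and 13.9 and 70.9 and 78.7 (2.36 ± 0.17), and Plod2, which hydroxylates the lysines used in cross-links, at 9.31 and 18.1 and 60.5 and 40.5 (1.88 ± 0.35). P4ha1 and P4ha2, the common prolyl 4-hydroxylases, and the collagen chaperone Serpinh1 were not called, at 0.41 ± 0.24, -0.65 ± 0.21 and 0.75 ± 0.32.

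Small leucine-rich proteoglycans, which coat collagen fibrils and set their width, were called higher for 10 of 17 tested members, with a median of 2.14 (1.91 when the 1 gene without counts in muscle is set to its lower bound). Fmod, fibromodulin, stood at 561 and 387 CPM in muscle and 4246 and 7326 in tendon (3.61 ± 0.60), and Dcn, decorin, at 903 and 803 and 4249 and 3751 (2.23 ± 0.34). Bgn, Prelp, Aspn and Omd were higher as well, at 2.32, 2.89, 2.14 and 3.38, while Lum, lumican, stood at 121 and 119 CPM in muscle and 126 and 69.1 in tendon (-0.30 ± 0.30) and was not called. Genes of elastic fibres gave 12 of 17 called higher, without elastin itself, and none lower (2 lower without tendon library 1). Eln stood at 143 and 204 CPM in muscle and 293 and 196 in tendon (0.49 ± 0.29) and the main microfibril protein Fbn1 at 185 and 252 and 384 and 241 (0.52 ± 0.36), neither of them called. Ltbp2, a microfibril-associated protein, stood at 1.37 and 2.09 CPM in muscle and 43.6 and 29.7 in tendon (4.40 ± 0.42), and Fbn2, a fibrillin of developing tissue, at 1.30 and 1.43 and 7.51 and 13.9 (2.97 ± 0.46).

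Cartilage and fibrocartilage genes were called higher for 11 of 18 tested members and lower for 1, with a median of 2.99; 8 of the 14 with a TPM value were called higher there. Prg4, which encodes the joint lubricant lubricin, stood at 24.6 and 19.3 CPM in muscle and 1172 and 537 in tendon (5.28 ± 0.57, adjusted p = 0.00506 by edgeR). Clec3a, a lectin of cartilage, had 0 and 8 counts in the muscle libraries and 6234 and 1860 in the tendon libraries (9.14 ± 1.08). The defining genes of cartilage were low in absolute terms. Acan, the large proteoglycan aggrecan, stood at 0.0980 and 0.198 CPM in muscle and 5.33 and 1.84 in tendon (4.57 ± 1.01), Col2a1, the main collagen of cartilage, at 2.23 and 0.903 and 7.79 and 32.6 (3.69 ± 0.90), and Sox9, the transcription factor of chondrocytes, at 1.81 and 2.33 and 13.7 and 5.76 (2.23 ± 0.50). Col10a1, of enlarged growth-plate chondrocytes, was at 0.0980 and 0 CPM in muscle and 0.142 and 0.110 in tendon. The member called lower was Sox6 (-1.80 ± 0.36), which besides its part in cartilage holds back slow isoforms in fast muscle fibres. Its level was 199 and 224 CPM in muscle and 38.4 and 82.8 in tendon.

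Of the bone and osteoclast genes 5 of 12 were called higher and 1 lower. Spp1, osteopontin, stood at 2.01 and 3.63 CPM in muscle and 148 and 105 in tendon (5.48 ± 0.83), and Ibsp, bone sialoprotein, at 0.123 and 0 and 10.7 and 12.8 (7.61 ± 1.45). Bglap, the osteoblast protein osteocalcin, was at or near 0 in all 4 libraries, with 2 and 0 counts in muscle and 2 and 4 in tendon. The member called lower was Mmp9, a gelatinase, at 6.05 and 10.6 CPM in muscle and 0.747 and 0.564 in tendon (-3.66 ± 0.67), a fall that the TPM columns did not show (0.74). Among the matrix proteases and their inhibitors, 11 of 19 were called higher and Mmp9 alone lower. The inhibitors Timp2 and Timp3 stood at 948 and 975 and at 851 and 635 CPM in tendon against 314 and 255 and 210.2 and 241 in muscle, and Timp1 at 8.24 and 22.0 against 1.69 and 0.661 (3.69 ± 0.61). The gelatinase Mmp2 (1.45 ± 0.30) and its membrane-bound activator Mmp14 (1.52 ± 0.21) were higher too.

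**Figure D2:**
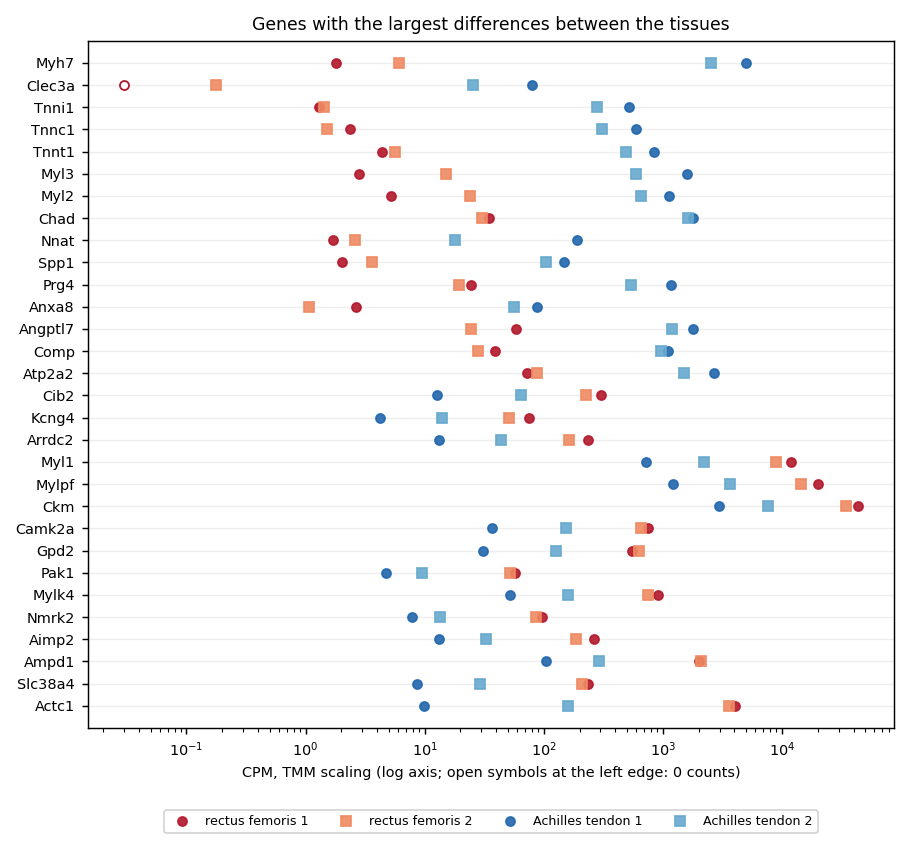
CPM after TMM scaling (log axis) in each of the 4 libraries for the 15 genes with the largest and the 15 with the smallest log2 fold change, among called genes whose libraries do not overlap between the tissues and whose mean reaches 50 CPM in the higher tissue. Of the 15 highest, 7 are slow muscle genes (Myh7, Tnni1, Tnnc1, Tnnt1, Myl3, Myl2 and Atp2a2), and among the 15 lowest tendon library 2 (light blue squares) lies between tendon library 1 (dark blue circles) and the muscle libraries.

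Slow and fast sarcomere isoforms went opposite ways. Of the 16 slow muscle genes tested, 12 were called higher in tendon and none lower. Of the 17 fast muscle genes 10 were called lower and none higher. With the 4 compared libraries alone, 13 slow genes were called higher and 6 fast genes lower. The medians were 3.95 and -2.66 under TMM, 4.70 and -1.97 with total counts, and 5.63 and -2.16 in TPM. Without tendon library 1 the counts were 10 higher and 12 lower, and without tendon library 2 they were 14 and 15.

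Myh7 had 73 and 278 counts in the muscle libraries and 386789 and 185330 in the tendon libraries, or 1.79 and 6.12 and 4983 and 2547 CPM (9.89 ± 0.85, adjusted p = 0.00391 by edgeR). In TPM it stood at 8.35 and 0.368 in muscle and 3282 and 2918 in tendon. All 3 slow troponin subunits were low in the muscle libraries. Tnnc1, the calcium-binding subunit, stood at 2.35 and 1.52 CPM in muscle and 594 and 310.2 in tendon (7.87 ± 0.48), Tnni1, the inhibitory subunit, at 1.30 and 1.43 and 516 and 282 (8.19 ± 0.71), and Tnnt1, which ties the complex to tropomyosin, at 4.41 and 5.59 and 837 and 494 (7.06 ± 0.40). The slow myosin light chains Myl2 and Myl3 stood at 1129 and 655 and at 1591 and 592 CPM in tendon and at 5.17 and 24.2 and at 2.79 and 15.1 in muscle. Atp2a2, the slow calcium pump, stood at 73.0 and 88.0 CPM in muscle and 2681 and 1497 in tendon (4.70 ± 0.39), and Sln, sarcolipin, a small regulator of the pump, at 0.343 and 0.617 and 30.1 and 18.0 (5.64 ± 0.83). Each of these was higher in tendon library 1 than in library 2, and in both than in either muscle library. Csrp3, Ankrd2, Smtnl1 and Pln were the slow members not called, at 1.84 ± 0.57, 1.84 ± 0.67, 1.97 ± 0.90 and 0.48 ± 0.89.

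Fast genes separated the 2 tendon libraries. Myh4, of the fastest fibres, had 96411 and 96345 CPM in muscle and 596 and 19283 in tendon, and its log2 fold change of -3.28 ± 1.37 was not called (adjusted p = 0.119 by edgeR). In TPM the order of the tendon libraries turned round, with 3689 and 744 in tendon against 27498 and 25444 in muscle. Actn3, the Z-disc protein of fast fibres, stood at 18446 and 15839 CPM in muscle and 188 and 3320.0 in tendon (-3.29 ± 1.14), and Pvalb, the calcium buffer parvalbumin, at 19637 and 13581 and 127 and 3086 (-3.37 ± 1.25), neither called. The fast light chains Mylpf and Myl1 were called lower, at 1208 and 3636 and at 719 and 2202 CPM in tendon against 20123 and 14578 and 11942 and 8950.3 in muscle (-2.84 ± 0.62 and -2.84 ± 0.64, adjusted p = 0.021 and 0.0228 by edgeR). The fast pump Atp2a1 stood at 61210.0 and 54189 CPM in muscle and 5778 and 14835 in tendon (-2.49 ± 0.72), with 21.9% of its exonic bases shared with another gene. Myh2, the chain of the slowest of the fast fibre types, went the other way without being called, at 475 and 2122 CPM in muscle and 6177 and 3145 in tendon (1.84 ± 0.79). The heavy chain genes are close copies of one another, so reads may be split uncertainly among them.

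Shares within a library do not depend on the scaling between libraries. Of the 4 adult heavy chains, Myh7 made up 0.00178% and 0.00577% in muscle and 36.6% and 8.77% in tendon, from counts divided by coding length. Myh4 made up 95.9% and 90.6% in muscle and 4.37% and 66.3% in tendon, and Myh2 0.472% and 1.99% and 45.2% and 10.8%. The TPM columns gave Myh7 25.6% and 35.2% and Myh4 28.8% and 8.98% in tendon. The slow member of each isoform pair had a larger share in both tendon libraries than in either muscle library. Tnnc1 made up 0.0969% and 0.0865% of Tnnc1 and Tnnc2 in muscle and 76.4% and 39.4% in tendon, although 74.0% of the exonic bases of Tnnc2 are shared with another gene. Myoz2, a Z-disc protein of slow fibres, made up 0.583% and 1.44% of Myoz2 and Myoz1 in muscle and 76.6% and 25.7% in tendon. Atp2a2 made up 0.113% and 0.154% of both pumps in muscle and 30.6% and 8.77% in tendon, Tnni1 0.0125% and 0.0199% and 33.2% and 11.3% of its pair, and Mybpc1, the slow myosin-binding protein C, 14.0% and 18.1% and 95.01% and 42.2%. In each of these pairs tendon library 1 held the larger slow share in counts and library 2 in TPM, where for example Tnnc1 made up 58.6% and 70.2%.

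**Figure D3:**
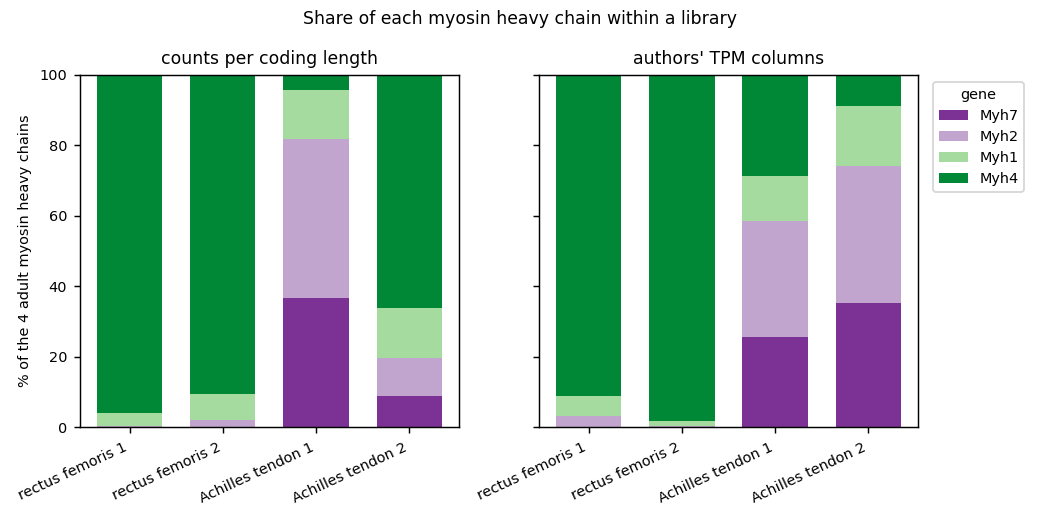
Share of Myh7, Myh2, Myh1 and Myh4 among the 4 adult myosin heavy chains in each library (stacked bars, percent), from counts divided by coding length (left) and from the authors' TPM columns (right). Myh4 fills most of both muscle bars, and the tendon library with the larger Myh4 share is library 2 in counts and library 1 in TPM.

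The stretch before the start site of 4 of these genes is shown because the slow genes rose together while a fast light chain fell. Each is the 250 bases upstream of the start in RefSeq on GRCm38.p6, plus strand, with E-boxes in capitals. The E-box, CANNTG, is the letter pattern that basic helix-loop-helix factors such as MyoD and scleraxis bind, and it reads the same on both strands. Tnnc1 lies at chr14:31208062-31208311, Tnni1 at chr1:135799171-135799420, Mylpf at chr7:127211358-127211607 and Chad, the tendon gene shown beside them, at chr11:94564797-94565046.
Tnnc1: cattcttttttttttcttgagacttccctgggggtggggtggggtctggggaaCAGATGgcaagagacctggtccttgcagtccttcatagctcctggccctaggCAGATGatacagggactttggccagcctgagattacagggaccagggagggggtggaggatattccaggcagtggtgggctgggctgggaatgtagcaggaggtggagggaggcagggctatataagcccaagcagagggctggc
Tnni1: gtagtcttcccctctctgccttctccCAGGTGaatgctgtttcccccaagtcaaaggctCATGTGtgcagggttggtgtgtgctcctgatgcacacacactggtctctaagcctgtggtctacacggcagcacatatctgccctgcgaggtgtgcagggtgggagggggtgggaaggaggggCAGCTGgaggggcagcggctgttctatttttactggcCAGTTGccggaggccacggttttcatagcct
Mylpf: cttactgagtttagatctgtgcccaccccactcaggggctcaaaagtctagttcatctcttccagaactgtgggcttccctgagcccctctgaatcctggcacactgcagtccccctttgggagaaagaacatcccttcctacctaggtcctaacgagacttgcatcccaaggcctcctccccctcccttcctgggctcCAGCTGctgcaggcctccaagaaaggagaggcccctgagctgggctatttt
Chad: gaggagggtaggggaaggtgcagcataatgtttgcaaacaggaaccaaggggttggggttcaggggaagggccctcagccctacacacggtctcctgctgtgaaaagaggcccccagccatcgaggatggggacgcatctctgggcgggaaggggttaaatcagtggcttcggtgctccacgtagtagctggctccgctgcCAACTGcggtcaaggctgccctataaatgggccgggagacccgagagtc
All 15 slow muscle genes found in the promoter table, of 16, held at least 1 E-box in these 250 bases, against 9 of 12 fast muscle genes (75%), 7 of 11 tendon cell genes (63.6%), 58.5% of the 12355 tested genes with a promoter and 66.0% of all 27025 promoters. A match is a run of letters and says nothing of whether a factor binds there.

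Sarcomere genes that slow and fast fibres share were called lower for 12 of 27 and higher for 2, with a median of -0.88 that shrank to -0.18 with total counts and -0.24 in TPM. Without tendon library 1, 5 were called lower, and with total counts 4. Acta1, the main actin of skeletal muscle, stood at 64837 and 52749 CPM in muscle and 12053 and 17203 in tendon (-2.01 ± 0.50), and Ttn, the giant spring protein titin, at 8041 and 9698 and 4373 and 6262 (-0.74 ± 0.40), which was not called. Myom3, a protein of the M-band of slow and intermediate fibres, was called higher, at 10.6 and 40.4 CPM in muscle and 353 and 196 in tendon (3.43 ± 0.67). Actc1, the actin of heart and of developing muscle, had the largest fall among the named genes, at 4078 and 3633 CPM in muscle and 9.88 and 159 in tendon (-5.52 ± 1.21, adjusted p = 0.0214 by edgeR). It was also lower in TPM, at 3238 and 5152 in muscle and 139 and 74.5 in tendon. Per coding length Actc1 made up 5.92% and 6.44% of Actc1 and Acta1 in muscle and 0.0819% and 0.913% in tendon, with the caution that these 2 genes are nearly identical and reads may be assigned to either. Myh6, the fast heavy chain of the heart, and Myh3, the embryonic one, were called higher, at 88.8 and 46.2 and at 81.7 and 78.3 CPM in tendon against 2.70 and 5.33 and 10.9 and 11.9 in muscle.

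Genes that turn the nerve signal into calcium release were lower, with 16 of 23 called lower and Sln alone higher, and a median of -1.48 (-0.78 with total counts and -0.79 in TPM). Leaving out tendon library 1 left 10 called lower, and total-count scaling 7. The muscle sodium channel Scn4a stood at 647 and 716 CPM in muscle and 114 and 194 in tendon (-2.15 ± 0.38), and the calcium channel subunit Cacna1s, the voltage sensor, at 1474 and 1578 and 363 and 731 (-1.48 ± 0.39). Ryr1, the calcium release channel, stood at 3542 and 3863 and 1229 and 2359.6 (-1.05 ± 0.39) and was not called. Enzymes of glycogen breakdown and glycolysis were called lower for 15 of 19, with a median of -2.17. With total counts 12 were called lower, in TPM 17, and with the 4 compared libraries alone 10. Pygm, the muscle glycogen phosphorylase, stood at 13255 and 11635 CPM in muscle and 859.6 and 3135 in tendon (-2.64 ± 0.63), and Gpd1, which passes electrons from glycolysis to the glycerol phosphate shuttle, at 1319.9 and 1129 and 154 and 225 (-2.69 ± 0.30). Its mitochondrial partner Gpd2 fell as well, from 553 and 632 CPM to 31.0 and 127 (-2.91 ± 0.65).

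Mitochondrial genes gave calls that changed with the scaling. For the respiratory chain, 28 of 33 subunits were called lower and 1 higher under TMM, with a median of -1.07, but 2 were called lower with total counts (median -0.34), and in TPM none was and the median was 0.30. Without tendon library 1, 12 were called lower. Citric acid cycle genes likewise had 14 of 19 lower with a median of -1.08 under TMM, 3 lower with total counts and a median of 0.23 in TPM. Within these families some members differed in the opposite sense. Cox7a1 and Cox6a2, the muscle forms of 2 cytochrome oxidase subunits, were called lower (-1.66 ± 0.29 and -1.44 ± 0.41) but stood at 0.033 and 0.069 in TPM, whereas the general form Cox6a1 was called higher, at 28.4 and 28.8 CPM in muscle and 63.8 and 49.1 in tendon (0.98 ± 0.24). Idh2, the mitochondrial isocitrate dehydrogenase that makes NADPH, stood at 162 and 185 CPM in muscle and 537 and 270.5 in tendon (1.22 ± 0.36) and was called higher, while the energy-yielding form Idh3a fell from 1064 and 1066 to 253 and 356 (-1.81 ± 0.29). Of the genes of fatty acid use 4 of 20 were called lower under TMM, with a median of -0.58, against 0 with total counts (median 0.16), and in TPM 16 were called higher (median 0.83). Of these, 2 were called lower without tendon library 1. The direction of these 3 lists thus changed with the scaling or the table used.

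Creatine and purine nucleotide genes gave 7 of 15 lower and 3 higher. Ckm, the muscle creatine kinase, stood at 43405 and 34447 CPM in muscle and 2961 and 7728 in tendon (-2.86 ± 0.60), while Ckb, the brain-type kinase found in most other cells, stood at 20.8 and 24.8 and 93.4 and 88.0 (1.99 ± 0.19). The AMP deaminases divided in the same way, with the muscle form Ampd1 at 2011 and 2077 CPM in muscle and 104 and 292 in tendon (-3.37 ± 0.50), and Ampd2 and Ampd3 called higher (1.10 ± 0.27 and 1.18 ± 0.34). All of these kept their direction with total counts and in TPM, but without tendon library 1 only 1 of the list was called higher. Other genes with the largest falls were Slc38a4, an amino acid transporter (-3.55 ± 0.57), Camk2a, a calcium-dependent kinase (-2.88 ± 0.62), Pak1, a kinase that acts on the cytoskeleton (-2.93 ± 0.40), and Aimp2, a scaffold of the tRNA synthetase complex (-3.28 ± 0.49, 29.4% of its exonic bases shared with another gene). Nmrk2, a nicotinamide riboside kinase of muscle, stood at 97.5 and 85.7 CPM in muscle and 7.81 and 13.4 in tendon (-3.11 ± 0.57), but its TPM difference of -0.97 was not called.

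Transcription factors and cofactors that set fibre type were called lower for 5 of 27 and higher for 2, against 12.7% and 13.3% of all genes. The median turned from -0.41 to 0.31 with total counts. In TPM 5 of 26 were called lower and 7 higher (median 0.28), against 3.63% and 29.5% of all genes. Eya1, Tbx15 and Sox6, which act in the fast programme, were called lower. Tbx15 stood at 431 and 384 CPM in muscle and 124 and 153 in tendon (-1.56 ± 0.33), and Eya1 at 44.4 and 36.7 and 12.1 and 15.02 (-1.58 ± 0.22). Esrrb, an oestrogen-related receptor of oxidative fibres, stood at 2.55 and 3.70 CPM in muscle and 15.03 and 9.99 in tendon (2.00 ± 0.48). Prox1, which acts in slow fibres and also in lymphatic vessels, stood at 2.50 and 2.71 and 24.4 and 7.97 (2.63 ± 0.54). Neither Esrrb nor Prox1 was called without tendon library 1, and 4 of the list were called lower. Myf6, the myogenic factor of mature fibres, was called lower (-1.65 ± 0.48) and Myod1 was not (-1.16 ± 0.85), with 3.54 and 27.8 CPM in the tendon libraries. Of 11 satellite cell genes 1 was called higher, Sdc4, a syndecan that many cells carry (0.71 ± 0.17), with 2 higher without tendon library 1 and 1 lower without tendon library 2. Pax7, the defining factor of muscle stem cells, stood at 4.53 and 4.07 CPM in muscle and 2.29 and 2.31 in tendon (-0.90 ± 0.42) and was not called.

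At the nerve contact, 4 of 15 genes were called lower and 3 higher. Chrne, the adult epsilon subunit of the acetylcholine receptor, stood at 18.8 and 24.6 CPM in muscle and 0.219 and 1.11 in tendon (-5.03 ± 0.93, adjusted p = 0.0142 by edgeR), a steeper fall than those of the other called subunits Chrna1 (-2.16 ± 0.62) and Chrnb1 (-1.37 ± 0.28) as point values; the difference between subunits was not tested. Utrn, Ncam1 and Lrp4 were called higher, and all 3 are also made outside the nerve contact (1.23 ± 0.31, 1.26 ± 0.20 and 0.99 ± 0.25). Genes of the junction between muscle and tendon and of adhesion to the matrix were called higher for 4 of 23 and lower for 5 under TMM (median -0.15). With total counts 9 were called higher and 1 lower (median 0.58), and in TPM also 9 and 1 (median 0.36). The members called higher under TMM were Col22a1, Itgbl1 (3.53 ± 0.26), Itga10, a collagen-binding integrin (2.88 ± 0.30), and Itgb1 (0.77 ± 0.23). Those called lower include the membrane proteins Sgca and Sgcb, both sarcoglycans (-1.63 ± 0.29 and -1.08 ± 0.26). Without tendon library 1, 1 was called lower. Of 21 atrophy genes 4 were called lower under TMM, including the ubiquitin ligases Trim63 (-1.51 ± 0.40) and Fbxo32 (-1.34 ± 0.29), and 0 with total counts. The count was 2 without tendon library 1 and 7 without library 2. Mstn, myostatin, which restrains muscle growth, stood at 147 and 143 CPM in muscle and 2.19 and 27.0 in tendon (-3.32 ± 1.06) and was not called.

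Genes that record position along the limb differed by single members. Of 41 tested Hox and limb genes, 16 were called higher and 3 lower. Pitx1, the factor that gives the hind limb its identity, stood at 0.490 and 0.330 CPM in muscle and 12.0 and 11.5 in tendon (4.84 ± 0.38, adjusted p = 0.00326 by edgeR), and Tbx4, which acts with it, at 2.60 and 3.77 and 8.52 and 7.79 (1.36 ± 0.35). Hoxa11 and Hoxd11, of the Hox group that patterns the lower segment of the limb, stood out. Hoxa11 was at 0.735 and 0.617 CPM in muscle and 12.5 and 9.39 in tendon (4.02 ± 0.56), with 35.0% of its exonic bases shared with another gene. Hoxd11 had no count in either muscle library and 174 and 192 counts in tendon, at least 35.0-fold higher when 3 counts per library are taken as the limit of a 0. Hoxa13, of the group that patterns the foot, stood at 0.368 and 0.573 CPM in muscle and 1.61 and 3.20 in tendon (2.35 ± 0.70). Isl1 and Hand2, which act in the early hind limb bud and in other tissues, also had 0 counts in both muscle libraries, and were at least 59.5-fold and 42.5-fold higher in tendon (454 and 179 and 236 and 210 counts).

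The 3 called lower were all of the HoxC cluster. Hoxc10, of the group that patterns the thigh and lower spine, stood at 104 and 90.9 CPM in muscle and 27.6 and 41.2 in tendon (-1.50 ± 0.25), Hoxc8 at 3.48 and 5.04 and 0.683 and 0.838 (-2.48 ± 0.50), and Hoxc6 at 10.7 and 10.4 and 4.73 and 3.99 (-1.28 ± 0.30). With total counts Hoxc8 and Hoxc10 kept negative values of -1.77 and -0.79, and 2 of the list were called lower. Hoxa10 was not called, at 25.7 and 24.4 CPM in muscle and 33.7 and 35.7 in tendon (0.47 ± 0.19). Leaving out tendon library 1 left 8 called higher and 2 lower.

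**Figure D4:**
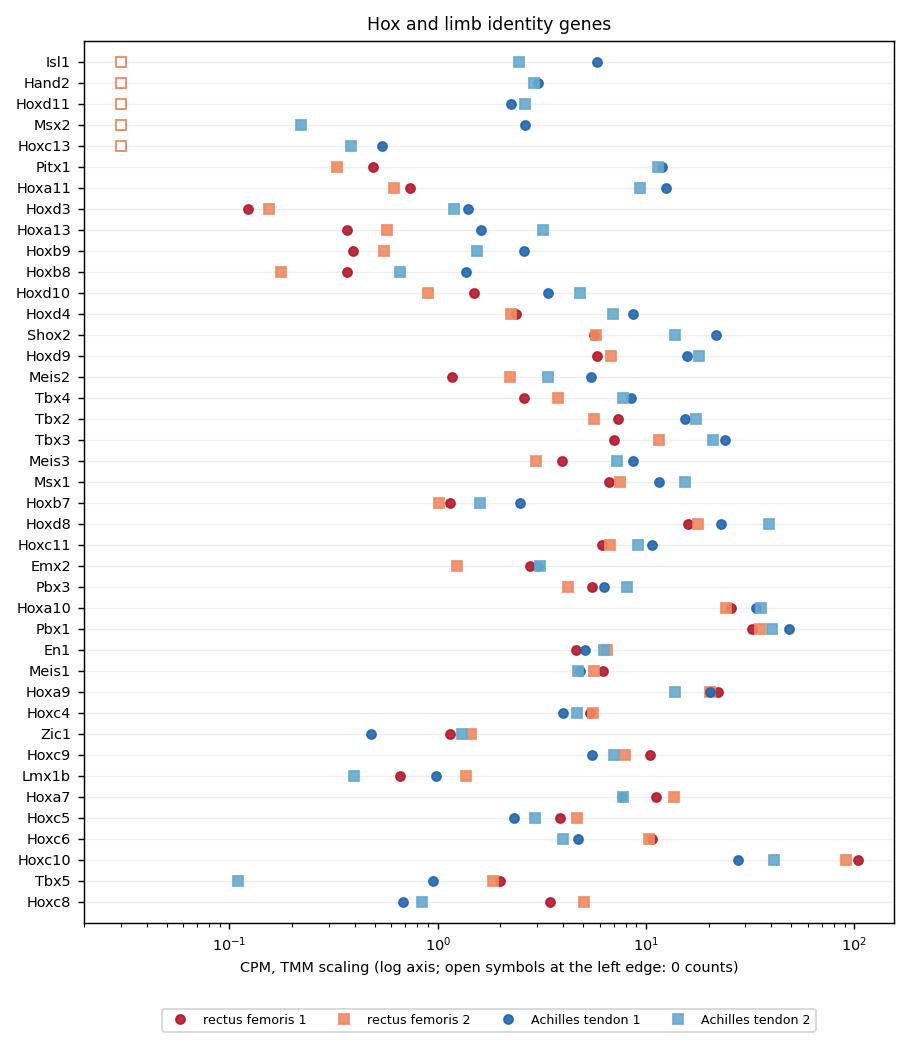
CPM after TMM scaling (log axis) of the 41 tested Hox and limb identity genes in each of the 4 libraries, ordered by log2 fold change. Isl1, Hand2, Hoxd11, Msx2 and Hoxc13 have 0 counts in both muscle libraries (open symbols, drawn on top of each other), and Hoxc10 is the most abundant member called lower.

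Signalling genes of the TGF-beta superfamily were called higher for 20 of 41 and lower for none (3 lower without tendon library 2), with a median of 1.17. Among the ligands, Tgfb1 stood at 10.6 and 10.9 CPM in muscle and 38.0 and 35.5 in tendon (1.77 ± 0.22) and Tgfb3 at 57.9 and 63.3 and 174 and 227 (1.73 ± 0.23), both called, and Tgfb2 at 33.6 and 35.8 and 37.8 and 81.7, not called. Gdf5, a ligand of joint and tendon development, had no count in muscle and 265 and 130 counts in tendon, at least 37.3-fold higher, with 40.3% of its exonic bases shared with another gene. Of the receptors Tgfbr2 and Tgfbr3 were called higher (1.01 ± 0.19 and 2.03 ± 0.21) and Bmpr1a and Bmpr2 were not (-0.48 ± 0.21 and 0.11 ± 0.23). Secreted inhibitors rose too, with Chrdl1 at 9.95 and 14.8 CPM in muscle and 87.0 and 56.0 in tendon (2.53 ± 0.30) and Fst, follistatin, at 16.7 and 16.1 and 58.5 and 56.8 (1.81 ± 0.18). The targets Id1, Id2 and Id3, small proteins that block helix-loop-helix factors, were all called higher (1.17 ± 0.23, 2.64 ± 0.22 and 1.58 ± 0.17).

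Of the hedgehog genes 6 of 12 were called higher and none lower. These were the signal transducer Smo (14.8 and 13.5 CPM in muscle and 48.5 and 56.3 in tendon, 1.89 ± 0.21), the co-receptors Gas1, Boc and Cdon (2.03 ± 0.30, 2.10 ± 0.31 and 0.89 ± 0.16) and the transcription factors Gli2 and Gli3 (1.37 ± 0.32 and 1.07 ± 0.28). The usual readouts of pathway activity, Gli1 and Ptch1, were not called (1.13 ± 0.70 and 0.28 ± 0.38). Without tendon library 1, 3 hedgehog genes were called. Wnt modulators gave 7 of 25 called higher and none lower, and 3 and 1 without tendon library 1. Wif1, which binds Wnt ligands outside the cell, stood at 30.7 and 9.49 CPM in muscle and 107 and 128 in tendon (2.55 ± 0.59), Sfrp4 at 8.72 and 7.46 and 45.6 and 17.1 (1.95 ± 0.58), and Rspo3, which strengthens the signal, at 0.858 and 0.440 and 6.66 and 5.43 (3.22 ± 0.52). Genes linked to the sensing of mechanical load were called higher for 12 of 16, with a median of 1.41. Ccn2, the matricellular protein also called connective tissue growth factor, stood at 57.0 and 50.3 CPM in muscle and 348 and 841 in tendon (3.47 ± 0.48), with 23.2% of its exonic bases shared with another gene. The stretch-gated channel Piezo2 stood at 3.94 and 4.38 and 15.2 and 20.1 (2.08 ± 0.32), and Wwtr1, the cofactor TAZ, at 62.1 and 65.4 and 149 and 181 (1.37 ± 0.20), while Piezo1 and Yap1 were not called (0.72 ± 0.38 and 0.39 ± 0.18).

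In the counts, markers of several other cell types parted the 2 tendon libraries from each other. The log2 ratio of these libraries in TPM had a correlation of -0.27 with that in counts across genes. The 18 adipocyte genes together took 0.315% and 0.517% of counts in muscle and 1.37% and 0.502% in tendon, and Lep, leptin, was the single member called higher (1.27 and 1.98 CPM in muscle and 65.7 and 6.20 in tendon). Without tendon library 2, 10 were called higher, and without tendon library 1 the list's median was -0.75. In TPM 10 of the 18 adipocyte genes were called higher (median 1.36), against 29.5% of all genes. Adipoq, the adipocyte hormone adiponectin, stood at 23.5 and 67.2 CPM in muscle and 269 and 24.9 in tendon. Schwann cell and nerve genes took 0.257% of counts in tendon library 1 and 0.0345% in library 2, against 0.0212% and 0.0289% in muscle, and 1 of 15 was called higher. Without tendon library 2, 11 were called, without library 1 none was, and in TPM all 15. Fast muscle genes, in turn, took 3.12% of counts in tendon library 1 and 8.77% in library 2. The 27 shared sarcomere genes took 4.39% and 5.15% there, and the 16 slow muscle genes 1.93% and 0.90%. The 14 tendon cell genes took 1.6% and 1.9%. The source of the muscle gene RNA in the tendon libraries was not tested. In the counts, the 2 tendon libraries thus differ in several other tissues' genes at once. The part of these genes in the differences of tendon genes was not tested.

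Vessel genes were modestly higher, with 8 of 16 endothelial genes called and a median of 0.82. Plvap, the diaphragm protein of leaky capillaries, stood at 29.6 and 34.5 CPM in muscle and 148 and 139.5 in tendon (2.17 ± 0.21), while the growth factor receptors Kdr and Flt1 were not called (0.30 ± 0.30 and 0.31 ± 0.24). Without tendon library 1, 4 endothelial genes were called. Of the smooth muscle and pericyte genes 3 of 12 were called higher (Tagln, Cspg4 and Pdgfrb) and 1 lower (Abcc9), with 9 and 1 without tendon library 2 and 1 and 1 without tendon library 1, where the median went from 1.14 to 0.37. General fibroblast genes were called higher for 3 of 16 (Dpp4, Tcf4 and Thy1), and without tendon library 2 for 6. Pdgfra and Dpt, widely used fibroblast markers, stood at 116 and 87.4 and at 280.1 and 144 CPM in tendon against 73.4 and 94.9 and 195 and 176 in muscle, with overlap between the tissues. Macrophage genes had a median of -0.04 with 2 of 15 called higher, Vsig4 (2.67 ± 0.53) and Cx3cr1 (2.25 ± 0.61), and without tendon library 1 none was called higher and 2 lower. The 2 of 15 macrophage genes called higher in the full fit lie at the share over all genes, 13.3%. In TPM 6 macrophage genes were called higher (median 0.98), and with total counts 5 (median 0.71). The shares over all genes were 29.5% in TPM and 37.6% with total counts. Lymphocyte genes had none called of 12 and took 0.000611% of counts or less in every library. Neutrophil and mast cell genes had 1 of 15 called lower, S100a8 (-3.38 ± 0.94, and 4.21 in TPM), a call lost when either tendon library is left out, and erythroid genes none of 9. Synovial lining genes gave 2 of 9 called higher, Prg4 and Has1 (1 without tendon library 1), and epidermis and hair genes none of 6.

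**Figure D5:**
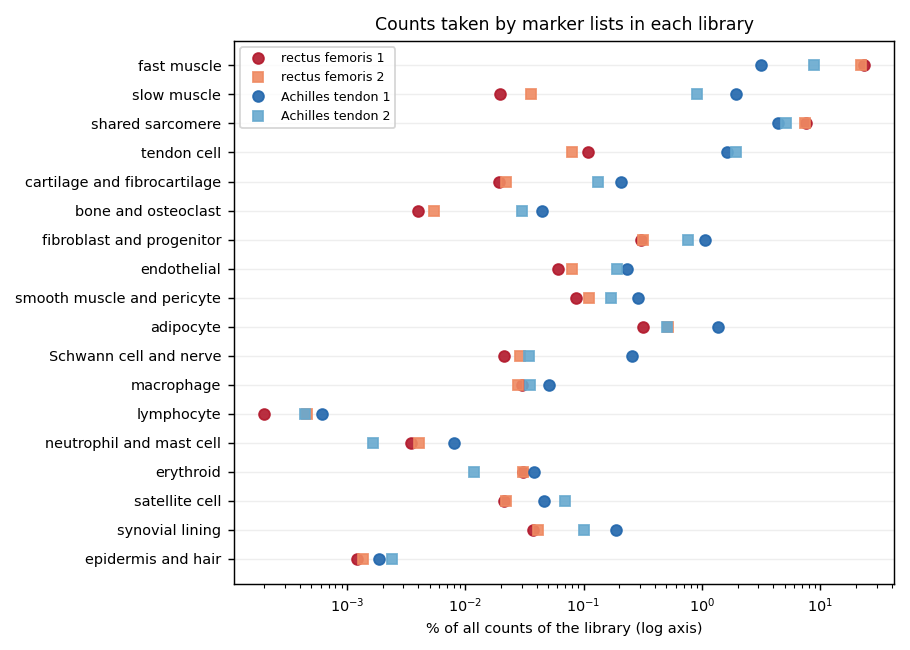
Share of all counts (percent, log axis) taken by each marker list in each of the 4 libraries. Tendon cell genes are higher in both tendon libraries than in both muscle libraries, whereas adipocyte genes (1.37% and 0.50% in tendon) and Schwann cell genes (0.26% and 0.03% in tendon) part tendon library 1 from library 2.

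Genes that passed the test with each of the 6 libraries left out in turn numbered 14 higher and 5 lower, and they were picked out after their values were seen. Those of the lists were Myh7, Tnnc1, Tnnt1, Chad, Col11a1 and P3h2. Leaving out 1 library moved the log2 fold change of Myh7 between 9.27 and 11.05, that of Tnnc1 between 7.31 and 8.27, and that of Chad between 5.62 and 5.83. Beyond the lists, Runx1, a transcription factor of blood and skeletal tissues, stood at 2.67 and 3.41 CPM in muscle and 27.3 and 28.4 in tendon (3.19 ± 0.24). Atp6v0a4, a subunit of the proton pump, stood at 0.490 and 0.661 and 21.0 and 31.3 (5.50 ± 0.36), and Vit, vitrin, a matrix protein, at 8.28 and 7.84 and 75.9 and 67.6 (3.15 ± 0.19). The 5 lower include genes near the floor, at 1.61 CPM or less in both muscle libraries and 0.0129 or less in both tendon libraries. Among the rest, Psd3 stood at 40.4 and 53.3 CPM in muscle and 4.77 and 4.05 in tendon (-3.41 ± 0.24), but only at -0.37 in TPM. Cmbl, a hydrolase, stood at 101 and 90.5 and 15.9 and 17.5 (-2.52 ± 0.19).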

How the data were processed

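RNA of 6 mouse libraries, 2 per tissue, was sequenced on an Illumina platform, per the labels. The authors deposited, by tissue, counts in whole numbers for each Ensembl gene, without normalization, and TPM for protein-coding genes. Bowtie2, RSEM 1.3.1, DESeq2 1.4.5 and the build GRCm39 are named in the submitters' processing notes, without their roles. The counting method, strand setting, gene annotation and any filter are not stated in the labels or files, and without a strand setting antisense genes cannot be told apart. The muscle and tendon counts list 17120 genes, of which 16964 are also listed in the fat pad. Only these 16964 entered the expression filter, which used all 6 libraries. All per-sample columns were used (0 left out). Symbols came from the authors' tables, or for 1740 of the genes in any table from a names table.

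The comparison used edgeR (version 4.0.16, under R 4.3.3) with TMM scaling, filterByExpr, tissue as the only term over all 6 libraries, glmQLFit with glmQLFTest, Benjamini-Hochberg adjustment and a threshold of 0.05. The biological coefficient of variation was 0.336. A standard error is the size of the log2 fold change over the root of the F statistic, and a value written with ± and no other word is a log2 fold change of tendon over muscle with its SE (n = 2 libraries a tissue). Where both muscle libraries had 0 counts, a lower bound on the fold was taken from 3 counts in each, which covers counting error only. The TPM columns were tested with limma 3.58.1 on log2(TPM + 1), which understates the change of low genes, over the 14829 tested genes with a value in all 3 tables. Shared exonic bases and coding length came from GENCODE M21 on GRCm38, used for no coordinates. The fit was tested on simulated data.

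The members and the 45 gene lists (831 genes) were chosen with earlier results of these data known. For naming, called genes were ranked by log2 fold change and the 15 at each end taken, among those whose libraries do not overlap and whose mean reaches 50 CPM in the higher tissue, without predicted or unnamed genes, and list members could be named whatever their test gave. Besides the lists described in the text, lists for the circadian clock, immediate early and stress genes, the interferon response and sex steroids were made. Alternatives were DESeq2 1.42.0 (size factors and test), total counts, no filter, the 4 libraries alone, the library number as a block, quality weights, TPM and leaving out each library.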

Additional observations from a re-analysis of the deposited data

How the results depend on the processing

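The 4127 genes called in all became 6367 with total-count scaling, 1493 plus 1266 with the library number as a block (2759 in all) and between 19 and 4380 when 1 library was left out. The 2110 higher calls became 5969 with total counts and 4375 in TPM, and between 14 and 2286 with 1 library left out. The 2017 lower calls became 398 with total counts, 538 in TPM, 3040 with DESeq2's test and 1266 with the replicate block, and between 5 and 2094 with 1 library left out. Leaving out a muscle library gave the lowest counts: 43 calls without library 1 (37 and 6) and 19 without library 2 (14 and 5), while leaving out tendon library 1 gave 1816 (1092 and 724). The cause was not tested, beyond the fact that these fits hold fewer samples. All 2110 and 2017 genes kept their sign in each of those 6 fits. The genes had been picked by the full fit, and each of these fits reuses most of its libraries. Their signs could thus hardly change, and keeping them is no check on the calls. Other settings stayed within 1.5 times of the first count: DESeq2's size factors (4077), DESeq2's test (5803), no filter (4023), the 4 libraries alone (4167), quality weights (5249) and TPM (4913).

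Deviations of libraries with the same number correlated at -0.167 between muscle and tendon, -0.03 between muscle and fat pad and 0.00 between tendon and fat pad. With 2 libraries a tissue, these values cannot show whether libraries with the same number come from the same animal. With the numbers crossed between muscle and tendon, an alternative chosen after seeing the data, 5672 genes were called (3004 higher and 2668 lower).

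The medians of some lists changed sign, for which the cause was not tested. In TPM they were 0.83 for fatty acid use, 0.30 for the respiratory chain, 0.23 for the citric acid cycle, 0.31 for creatine and purine nucleotides, 0.28 for fibre type regulators, 0.024 for the neuromuscular junction, 0.97 for neutrophils and mast cells, 0.88 for erythroid genes and 0.77 for the interferon response. With total counts they were 0.16 for fatty acid use, 0.31 for fibre type regulators and 0.30 for neutrophils and mast cells. Medians nearer 0 changed sign under both settings as well. The macrophage median went from -0.04 to 0.71 with total counts and 0.98 in TPM. That of the muscle-tendon junction and adhesion went from -0.15 to 0.58 and 0.36, and that of the circadian clock from -0.09 to 0.63 and 0.23.

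Single genes changed sign as well, among them genes called lower from counts by over 2-fold (S100a8, Mmp9, Ifit1, Oas1a, Oas2, Cox7a1 and Cox6a2). In TPM the log2 fold changes were 0.055 for Bmpr1a, 0.069 for Cox6a2, 0.033 for Cox7a1, 0.94 for Ifit1, 1.49 for Ifit2, 1.26 for Ifit3, 1.20 for Irf7, 0.52 for Isg15, 0.51 for Lum, 0.74 for Mmp9, 1.50 for Mybpc1, 0.91 for Myh1, 0.60 for Oas1a, 0.090 for Oas2, -0.25 for P4ha1 and 4.21 for S100a8. With total counts they were 0.24 for Bmpr1a, 0.034 for Cry1, 0.093 for Ifit2, 0.45 for Lum, 0.70 for Mybpc1 and 0.070 for P4ha2. Mybpc1 stood at 0.020 with the 4 libraries alone and 0.010 with the crossed replicate block, and Pln at -0.029 with quality weights and -0.020 with the replicate block. With 1 library left out the values ran from -0.88 to 2.65 for Adipoq, -0.28 to 4.74 for Bglap, -0.12 to 0.41 for Bmpr2, -0.24 to 1.25 for Col3a1, -0.074 to 1.03 for Col5a1, -0.28 to 0.42 for Col5a3, -0.37 to 0.60 for Dpt, -1.29 to 0.50 for Ifit2, -2.41 to 0.22 for Irf7, -0.072 to 0.81 for Kdr, -0.81 to 0.073 for Lum, -0.24 to 0.14 for Mybpc1, -1.41 to 1.28 for Pln and -0.34 to 0.71 for Ptch1. Of 223 genes named in the text 176 were called, of which 29 lost the call with the replicate block, 16 with total counts, 155 and 165 without muscle library 1 or 2, and 50 and 19 without tendon library 1 or 2.

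With 2 libraries a tissue, a gene that was not called was not shown to be equal. Bglap, Msx2 and Hoxc13 had 3 or fewer counts in each muscle library.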

Other observations

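Genes of the interferon response parted the 2 muscle libraries from each other. Ifit3, an interferon-induced antiviral protein, stood at 100.4 and 12.4 CPM in muscle and 8.12 and 8.55 in tendon, and Isg15, a ubiquitin-like protein of the same response, at 22.3 and 3.61 and 2.62 and 2.78. Of 15 members 3 were called lower in tendon (Ifit1, Oas1a and Oas2), with a median log2 fold change of -2.00, and none was called when either tendon library is left out. In TPM none was called lower, 3 were called higher (Ifit2, Ifit3 and Irf7) and the median was 0.77. Ifit3 in TPM stood at 24.7 and 34.3 in muscle and 57.3 and 89.0 in tendon.

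Genes of the circadian clock gave 1 call in 17, Cry1, a repressor of the clock (-0.69 ± 0.18, and 0.034 with total counts), a call lost when either tendon library is left out, and a median of -0.09. Of 21 immediate early and stress genes 3 were called higher, near the 13.3% over all genes. These were Hspa1a, a heat shock chaperone (1.21 ± 0.36), Jund (1.80 ± 0.22, 52.6% of its exonic bases shared with another gene) and Maff (2.52 ± 0.32). With total counts 12 were called higher, against 37.6% of all genes. In TPM 10 of 20 were called higher and 1 lower, against 29.5% and 3.63%. The list's median of 0.37 became 1.08 with total counts, 0.93 in TPM and 0.19 without tendon library 2. Among sex steroid and prostaglandin genes 4 of 16 were called higher (Srd5a1, Srd5a3, Hsd17b11 and Ptgs1) and none lower, against 2 and 2 without tendon library 1. Srd5a1, a steroid 5-alpha reductase, stood at 0.294 and 0.374 CPM in muscle and 1.71 and 1.50 in tendon (2.26 ± 0.55), and Ptgs1, the constitutive cyclooxygenase, at 4.41 and 4.95 and 21.8 and 18.4 (2.10 ± 0.21). Esr1, the oestrogen receptor alpha, stood at 45.2 and 49.2 and 35.2 and 17.9 (-0.83 ± 0.34) and was not called.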
